A study of Mus musculus with 28 samples.

Results

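The signalling chain of *Trem2* and *Tyrobp* was followed through 9 genes of the 48587 in the count table: the receptor *Trem2*, the adaptors *Tyrobp* and *Hcst*, the kinase *Syk*, the effectors *Plcg2*, *Vav1* and *Grb2*, and the phosphatases *Inpp5d* and *Ptpn6*. They were taken from the table by gene symbol. All 9 were found, and all 9 passed the filter on low counts.

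Microglia were sorted as CD11b+CD45low cells from the hippocampus of mice aged 16 weeks, and their RNA was sequenced to ask how gut microbiota bears on microglia in an Alzheimer's disease model. The 5xFAD mice carried human transgenes with familial Alzheimer's disease mutations, on 1 allele, driven by the neuron-specific Thy-1 promoter. Their controls were wild-type (WT) littermates, on the same C57BL/6J background. The methods give male 5xFAD mice. SPF mice had a microbiota free of specified pathogens, GF (germ-free) mice had none from birth and came from another facility, and ABX mice were SPF mice given vancomycin, cefoxitin, gentamicin and metronidazole in the drinking water for 8 weeks. WT mice numbered 5 in SPF, 4 in GF and 5 in ABX housing, 5xFAD mice 3, 5 and 6, and each library came from 1 mouse. The embryo transfer and the facility that set GF mice apart from SPF mice cannot be told apart from the absence of microbes.

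TREM2 is a surface receptor of myeloid cells that binds lipids and lipoproteins, among them apolipoprotein E, and amyloid-beta. It has no signalling tail of its own and pairs with DAP12, the product of *Tyrobp*, whose ITAM (immunoreceptor tyrosine-based activation motif) is phosphorylated by Src family kinases and then holds the kinase SYK. DAP10, the product of *Hcst*, pairs with TREM2 too and recruits phosphoinositide 3-kinase and GRB2. Downstream, phospholipase C gamma 2 releases calcium and VAV1 activates small GTPases, while SHIP1, encoded by *Inpp5d*, and SHP1, encoded by *Ptpn6*, remove phosphates and dampen the chain. Variants near or in *TREM2*, *PLCG2* and *INPP5D* are linked to human Alzheimer's disease, and loss of *TYROBP* or *TREM2* causes Nasu-Hakola disease.

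Libraries held 14441610 to 29977395 reads in genes. Mouse FAD_GF_201 was called 5xFAD in its title and genotype and WT in its column label. It was kept as GF 5xFAD, and the called differences of the 9 genes that use GF 5xFAD mice are given with and without it. The column labels fall into 3 numbering sets, called styles here. All SPF WT and ABX WT mice are in the first. The SPF 5xFAD mice with ABX 5xFAD mouse FAD_ABX_1151 are in the second, and all GF mice with the other ABX 5xFAD mice in the third. The first and second have the same form, an index before a mouse number, and differ in the range of mouse numbers and in reused indices. The labels do not say what the sets stand for. GF 5xFAD and GF WT mice lie within the third style, whereas genotype and style cannot be told apart in SPF or in ABX mice, and neither can housing and style between GF and SPF mice of either genotype or between GF WT and ABX WT mice. All 9 microglial markers were detected in every library, and their summed level was 62441 to 69825 CPM (reads scaled to library size) in WT and 48412 to 59683 CPM in 5xFAD mice. The summed level of 7 neutrophil markers was 61.1 to 263 CPM in SPF 5xFAD mice and 144 CPM in mouse FAD_ABX_1151, the same 4 libraries as the second style, and at most 0.294 CPM in every other library. That of 7 border-associated macrophage markers was 34.0 to 253 CPM in ABX 5xFAD mice, 10.0 to 81.0 CPM in the GF 5xFAD group (highest in mouse FAD_GF_201), 16.1 to 29.2 CPM with SPF 5xFAD, 10.7 to 43.9 CPM for GF WT and at most 8.15 CPM in the remaining WT mice. The sum of 4 monocyte markers did not overlap between genotypes in SPF (6.13 to 8.42 CPM in WT, 15.5 to 38.9 CPM in 5xFAD) or ABX mice (2.08 to 9.05 and 14.4 to 51.9 CPM), and overlapped in GF mice (3.40 to 16.5 and 5.98 to 24.9 CPM). The sort also had an exclusion gate that included Ly6C and Ly6G, surface markers of monocytes and neutrophils, and markers of lymphocytes. Lymphocytes also use DAP12 and DAP10. The sum of 6 NK cell markers was at most 0.572 CPM in WT mice and reached 1.46 CPM in the SPF, 3.65 CPM in the GF and 2.19 CPM in the ABX 5xFAD group. It came mainly from *Klrb1c* (up to 2.57 CPM) and *Prf1* (up to 1.09 CPM), while *Ncr1*, *Gzma* and *Klre1* were at 0 reads in all 28 libraries. The sum of 6 T cell markers was at most 0.595 CPM. That of 4 endothelial markers was 8.42 to 28.4 CPM in GF 5xFAD mice, below GF WT (33.9 to 40.8 CPM) and SPF 5xFAD mice (29.0 to 40.4 CPM), with *Cldn5* at most 0.0808 CPM in any library. The sum of 4 astrocyte markers was 0.635 to 1.90 CPM in GF WT and 2.72 to 10.2 CPM in GF 5xFAD mice. Both sums overlapped between genotypes in SPF and in ABX mice. The part of these cells in the differences was not tested. In bulk RNA, fewer cells of a type and less RNA per cell cannot be told apart.

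Levels between genes are compared as TPM, which divides reads by gene length before scaling to the library. *Tyrobp* had the highest TPM of the chain, with a mean of 7184 TPM over 28 mice, rank 13 of all genes. *Trem2* followed with 1267 TPM, and then *Ptpn6* with 657, *Vav1* with 522, *Inpp5d* with 483, *Plcg2* with 247, *Grb2* with 168, *Hcst* with 68.6 and *Syk* with 64.1 TPM. The order was not the same in every group. In SPF WT mice *Syk* (80.6 ± 4.15 TPM, SD, n = 5) lay above *Hcst* (51.6 ± 3.90 TPM), and in GF 5xFAD mice *Hcst* (105 ± 16.5 TPM, SD, n = 5) lay above *Syk* (44.1 ± 7.04 TPM). *Vav1* (569 ± 14.9 TPM) and *Inpp5d* (528 ± 45.4 TPM) lay within 1 SD of each other in SPF WT mice. The TPM of *Tyrobp* (4348 ± 354) exceeded that of *Trem2* (1023 ± 49.0) by far more than the spread between mice. This gap depends on the length used, which counts all annotated exons of a gene. It was 4946 bases for *Trem2*, over 4 transcripts, and 667 for *Tyrobp*. In CPM, without division by length, *Trem2* was the higher in SPF WT mice (1558 against 894 CPM).

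The genotype comparison asked how 5xFAD microglia differ in this chain under each state of the microbiota. The receptor and both adaptors rose in all 3 conditions. In SPF mice 4 of the 9 genes changed, against 4.57% of the 15298 genes tested: 3 were higher, against 3.73%, and 1 was lower, against 0.837%. The same 4 had genotypes that did not overlap, which held for 16.9% of all genes in either direction. In GF mice 6 of 9 changed, against 15.6%: 3 were higher, against 9.43%, and 3 lower, against 6.2%, and 5 did not overlap, against 14.8%. In ABX mice 5 of 9 changed, against 14.4%, all of them higher (9.45% of all genes) and none lower (4.98%), and 3 did not overlap, against 6.83%. The median log2 difference over the chain came to 0.06 with SPF, 0.02 with GF and 0.25 with ABX, beside -0.03, -0.03 and -0.01 over all genes tested. Without mice FAD_ABX_1151 and FAD_ABX_1482 the counts were 4, 6 and 4, beside 5.43%, 17.9% and 15.1% of all genes in that fit. With all genes split into 4 equal classes by length, the median difference in GF mice ran from 0.11 on the log2 scale in the shortest class, up to 2053 bases, to -0.11 in the longest, from 5729 bases, and it lay between -0.06 and 0.02 in every class for SPF and ABX mice. With an offset for gene length the counts were 3 of 9 for SPF (3 higher, none lower), 4 for GF (3 higher, 1 lower) and 5 for ABX mice (all higher), beside 5.05%, 14.8% and 15.5%. Across any of the 6 groups, 7 of the 9 genes differed (all but *Plcg2* and *Vav1*), against 33.2% of all genes.

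**Figure D1:**
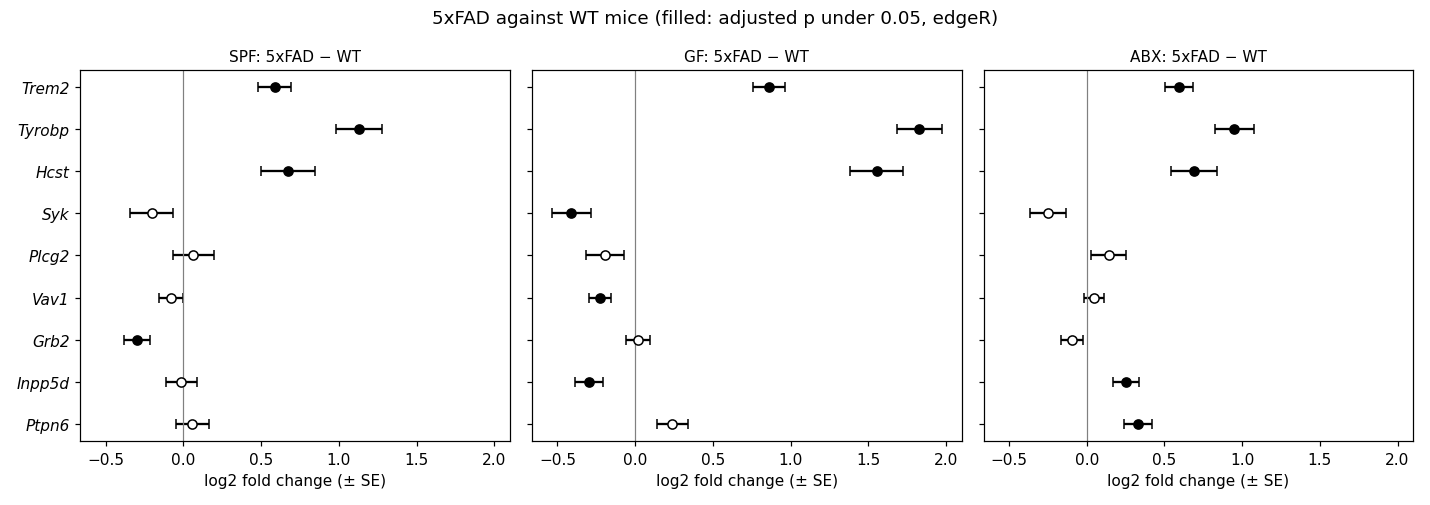
Log2 fold change of 5xFAD over WT mice for the 9 genes in SPF, GF and ABX conditions, with bars of 1 SE from the edgeR fit. Filled points have an adjusted p under 0.05; *Trem2*, *Tyrobp* and *Hcst* are filled in all 3 panels, and the 6 intracellular genes lie between -0.41 and 0.33.

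*Tyrobp* lies on mouse chromosome 7 from 30413760 to 30417585 on the plus strand (GRCm38), with exons of 667 bases in all. The motif that makes its product a signalling adaptor is shown because it is where the receptor, the kinases and SYK meet. It is the coding stretch of residues 92 to 106 of the 114 residues of transcript Tyrobp-201, in GENCODE M21, with the codons of both ITAM tyrosines in capitals.

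Tyrobp ITAM: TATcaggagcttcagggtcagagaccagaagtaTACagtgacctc

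*Tyrobp*, whose product carries the signal of TREM2 into the cell, rose in 5xFAD mice in each condition. It measured 803, 875, 876, 876 and 1039 CPM (TMM-scaled) in SPF WT mice and 1815, 1926 and 2125 CPM in SPF 5xFAD mice. In GF mice it measured 746, 913, 942 and 1084 CPM in WT and 2131, 3165, 3382, 3721 and 3976 CPM in 5xFAD, where mouse FAD_GF_201 was the lowest. The genotypes did not overlap in either condition, and all 5 GF 5xFAD mice lay above all 3 SPF 5xFAD mice. ABX WT mice held 807, 932.1, 968, 969 and 1041 CPM and ABX 5xFAD mice 1505 to 2286 CPM (median 1747), again without overlap. The fold change of 5xFAD over WT was 2.19 in SPF (log2 1.13, SE 0.147, adjusted p = 3.33e-06, edgeR's quasi-likelihood test), 3.56 in GF (log2 1.83, SE 0.145, adjusted p = 1.29e-10) and 1.93 in ABX mice (log2 0.95, SE 0.127, adjusted p = 2.87e-06). All 38 alternatives kept each of these calls. Without mouse FAD_GF_201 the GF difference was 1.96 on the log2 scale.

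**Figure D2:**
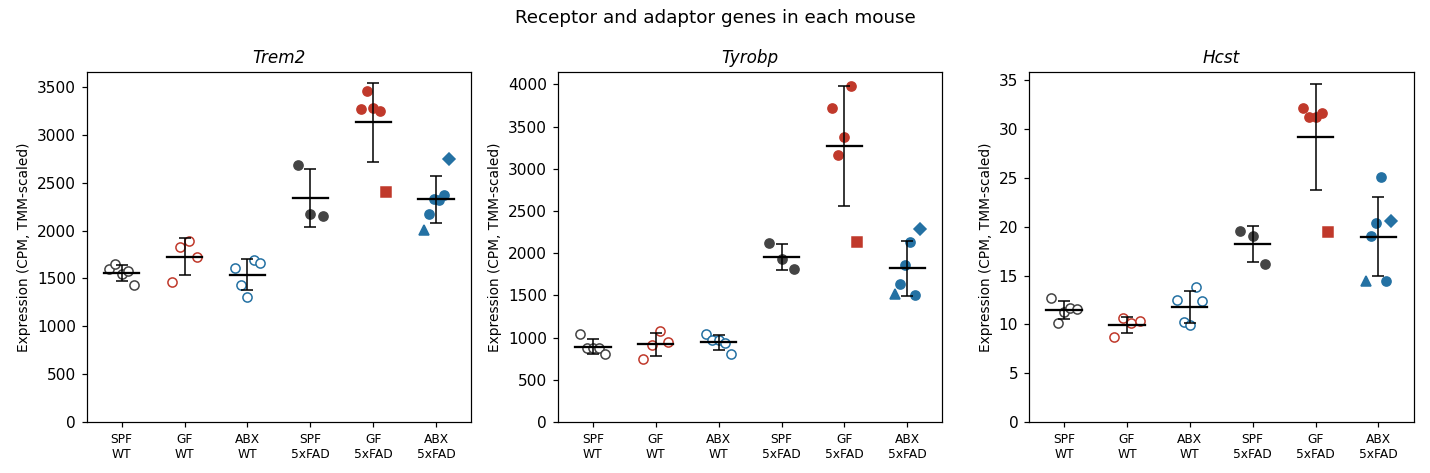
Expression of *Trem2*, *Tyrobp* and *Hcst* in each of 28 mice, in CPM scaled by TMM, by group. Points are mice (open WT, filled 5xFAD; square GF 5xFAD mouse FAD_GF_201, triangle ABX 5xFAD mouse FAD_ABX_1151, diamond ABX 5xFAD mouse FAD_ABX_1482), horizontal lines are means and bars SD; GF 5xFAD means are the highest for all 3 genes, and mouse FAD_GF_201 is the lowest of its group in each.

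*Trem2* lies on chromosome 17 from 48346401 to 48354147 on the plus strand. It measured 1427, 1546, 1574, 1596 and 1648 CPM in SPF WT and 2153, 2178 and 2686 CPM in SPF 5xFAD mice. GF WT mice held 1458, 1729, 1832 and 1889 CPM and GF 5xFAD mice 2405, 3246, 3266, 3276 and 3462 CPM. Here mouse FAD_GF_201 was the lowest, within the range of SPF 5xFAD mice, yet every 5xFAD mouse lay above every WT mouse in both conditions. ABX WT mice held 1309 to 1696 CPM (median 1604) and ABX 5xFAD mice 2005 to 2752 CPM (median 2325), again without overlap. *Trem2* rose 1.5-fold in SPF (log2 0.59, SE 0.108, adjusted p = 6.01e-04), 1.81-fold in GF (log2 0.86, SE 0.103, adjusted p = 3.75e-07) and 1.51-fold in ABX mice (log2 0.59, SE 0.0920, adjusted p = 2.82e-05). Without mouse FAD_GF_201 the GF difference was 0.95 on the log2 scale (adjusted p = 1.3e-08). The 3 calls stood in all 38 alternatives.

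*Hcst* lies on the minus strand of chromosome 7 from 30417712 to 30419854. Its last exon faces that of *Tyrobp*, with 126 bases between them. Its product carries a motif that binds phosphoinositide 3-kinase, at residues 72 to 75 of the 79 of transcript Hcst-201, shown for contrast with the ITAM and with its tyrosine codon in capitals.

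Hcst phosphoinositide 3-kinase motif: TACatcaacatg

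*Hcst* was scarce, with 155 to 764 reads in a library. It measured 10.1, 11.3, 11.5, 11.7 and 12.8 CPM in SPF WT and 16.2, 19.0 and 19.6 CPM in SPF 5xFAD mice, a 1.59-fold rise (log2 0.67, SE 0.175, adjusted p = 0.0188). That call was lost without SPF WT mouse WT_SPF_925 (adjusted p = 0.0555) or without SPF 5xFAD mouse FAD_SPF_1144 (0.118) or FAD_SPF_1146 (0.0760). GF WT mice held 8.72, 10.1, 10.3 and 10.6 CPM and GF 5xFAD mice 19.5, 31.2, 31.2, 31.7 and 32.2 CPM, a 2.94-fold rise (log2 1.55, SE 0.169, adjusted p = 7.35e-08), and 1.68 on the log2 scale without mouse FAD_GF_201, again the lowest. ABX WT mice held 9.98 to 13.8 CPM and ABX 5xFAD mice 14.4 to 25.1 CPM, a 1.61-fold rise (log2 0.69, SE 0.149, adjusted p = 0.00174). The genotypes did not overlap in any of the 3 conditions.

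Among WT mice, *Hcst* reads were 1.29 ± 0.107% of *Tyrobp* reads in SPF (SD, n = 5), 1.09 ± 0.109% in GF (n = 4) and 1.26 ± 0.234% in ABX housing (n = 5). Among 5xFAD mice they were 0.934 ± 0.0495% with SPF (n = 3), 0.897 ± 0.0712% for GF (n = 5) and 1.04 ± 0.119% under ABX (n = 6). The SPF genotypes did not overlap in this share (1.16 to 1.44% and 0.891 to 0.988%), and those of GF and ABX mice did. Library preparation did not mark the strand, so a *Tyrobp* read running past its end could only be told from *Hcst* by position, and how far this adds to *Hcst* was not tested. The ratio of *Trem2* to *Tyrobp*, in reads per kilobase, averaged 0.236 ± 0.0174 (SPF), 0.254 ± 0.0160 (GF) and 0.223 ± 0.0384 (ABX) among WT mice. Among 5xFAD it was 0.161 ± 0.00902, 0.132 ± 0.0181 and 0.175 ± 0.0221. The ratio ranged from 0.207 to 0.254 in SPF WT and from 0.152 to 0.170 in SPF 5xFAD mice, and from 0.235 to 0.271 in GF WT and from 0.110 to 0.152 in GF 5xFAD mice, without overlap within either housing, while the ABX genotypes overlapped (0.182 to 0.278 and 0.147 to 0.213).

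**Figure D3:**
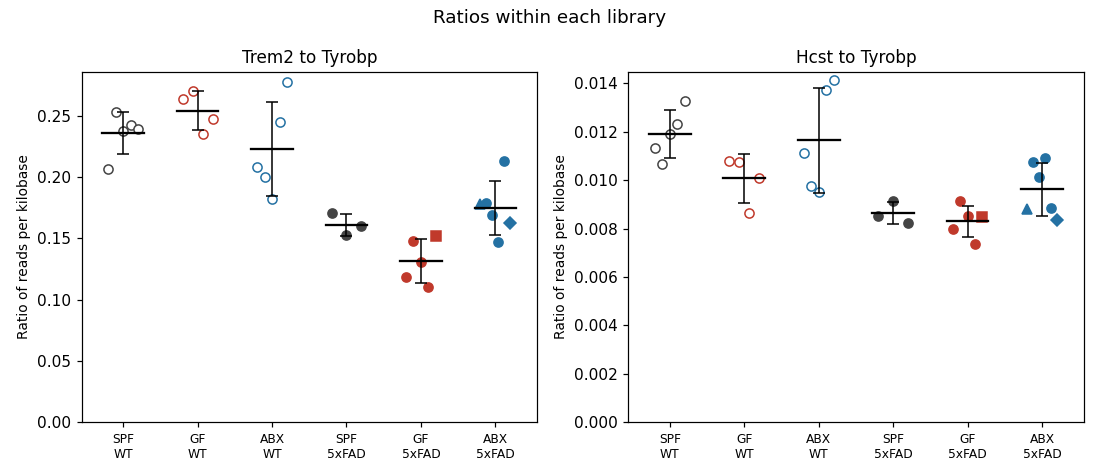
Ratio of *Trem2* to *Tyrobp* and of *Hcst* to *Tyrobp* in reads per kilobase within each library, by group. Points are mice, lines means and bars SD, with symbols as in the plot of receptor and adaptor levels; the mean ratio of *Trem2* to *Tyrobp* is 0.223 to 0.254 in WT and 0.132 to 0.175 in 5xFAD groups.

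*Syk* encodes the tandem SH2 domain kinase that docks on the phosphorylated ITAM. It was 224, 225, 232, 240.1 and 240.3 CPM in SPF WT and 159, 202 and 243 CPM in SPF 5xFAD mice, which overlapped (log2 -0.21, SE 0.139, adjusted p = 0.600). In GF mice it was 173, 194, 211 and 261 CPM in WT and 138, 147, 158, 159 and 188 CPM in 5xFAD. The drop there came to -0.41 in log2 terms (SE 0.127, adjusted p = 0.0253), and 4 of 5 GF 5xFAD mice lay below all WT mice. Mouse FAD_GF_201 was the highest of the 5, and without it the difference was -0.47 (adjusted p = 0.00991). The call was lost without GF WT mouse WT_GF_199 (adjusted p = 0.161) or WT_GF_229 (0.0526), without GF 5xFAD mouse FAD_GF_181 (0.0606) or FAD_GF_182 (0.0707), and with an offset for gene length (log2 -0.28, adjusted p = 0.0632). In ABX mice the values were 168 to 233 CPM in WT and 151 to 224 CPM in 5xFAD (log2 -0.25, SE 0.115, adjusted p = 0.150). *Syk* passed there in 2 of 38 alternatives, with an adjusted p of 0.0301 without mouse FAD_ABX_1151, the highest of the ABX 5xFAD mice.

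*Plcg2*, the phospholipase that turns SYK activity into calcium release, passed the test in none of the 3 genotype comparisons, and no alternative moved it past the threshold. Its group means ranged from 315 CPM in ABX WT to 394 CPM in GF WT mice, and 5xFAD minus WT was 0.06 (SE 0.134) with SPF, -0.19 (SE 0.123) for GF and 0.14 (SE 0.112) under ABX on the log2 scale. *Vav1*, an exchange factor for small GTPases, was 642, 678, 698 and 722 CPM in GF WT and 556, 558, 568, 581 and 669 CPM in GF 5xFAD mice. The highest of the latter was mouse FAD_GF_201. The log2 difference of *Vav1* in GF mice was -0.22 (SE 0.0703, adjusted p = 0.0274), and -0.27 without mouse FAD_GF_201 (adjusted p = 0.00568). The call stood in 29 of 38 alternatives, and was lost on leaving out any 1 of mice WT_GF_199, WT_GF_229, WT_GF_231, FAD_GF_181, FAD_GF_182, FAD_GF_184 and FAD_GF_185 (adjusted p 0.0515 to 0.0936). In SPF and ABX mice its difference was -0.08 (adjusted p = 0.772) and 0.04 (adjusted p = 0.716).

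*Grb2*, the adaptor that links receptors to RAS, gave the single lower call of SPF mice. It was 164, 169, 175, 183 and 188 CPM in SPF WT and 124, 149 and 155 CPM in SPF 5xFAD mice, without overlap (log2 -0.30, SE 0.0861, adjusted p = 0.0390). The call stood in 19 of 38 alternatives and its adjusted p reached 0.415 without SPF 5xFAD mouse FAD_SPF_1144, the lowest. In GF mice (log2 0.02, adjusted p = 0.916) and ABX mice (log2 -0.09, adjusted p = 0.433) it did not pass.

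**Figure D4:**
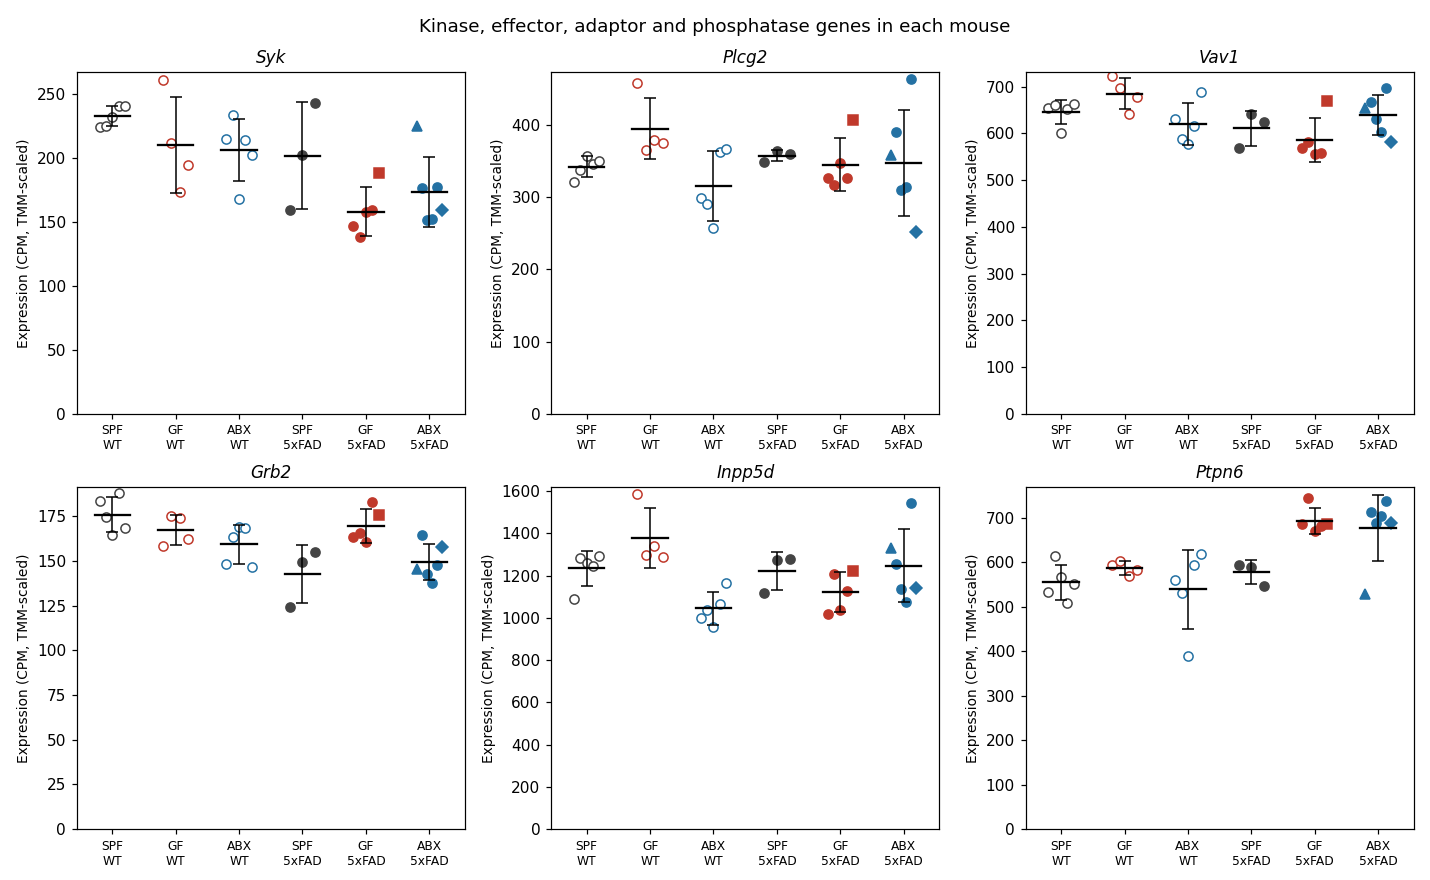
Expression of *Syk*, *Plcg2*, *Vav1*, *Grb2*, *Inpp5d* and *Ptpn6* in each of 28 mice, in CPM scaled by TMM, by group. Points are mice, lines means and bars SD, with symbols as in the plot of receptor and adaptor levels; *Inpp5d* is lowest in ABX WT mice (mean 1045 CPM) and highest in GF WT mice (mean 1379 CPM).

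*Inpp5d*, one of the 2 phosphatase genes, was 1287, 1299, 1341 and 1588 CPM in GF WT and 1018, 1040, 1127, 1209 and 1223 CPM in GF 5xFAD mice. The groups did not overlap, with a log2 difference of -0.30 (SE 0.0913, adjusted p = 0.0252), or -0.32 (0.0173) without mouse FAD_GF_201. In ABX mice it rose instead, by 0.25 (SE 0.0829, adjusted p = 0.0367), from 959, 1002, 1037, 1065 and 1164 CPM in WT to 1074 to 1545 CPM (median 1198) in 5xFAD, and 3 of 6 lay above all WT mice. In SPF mice the difference was -0.01 (SE 0.0997, adjusted p = 0.979). The GF call was lost without GF WT mouse WT_GF_199 (adjusted p = 0.141), without GF 5xFAD mouse FAD_GF_181 (0.0748) or FAD_GF_184 (0.0660), and with a length offset (0.0597). The ABX call was lost in 10 of 38 alternatives, among them the removal of ABX WT mouse WT_ABX_909 (0.0791), WT_ABX_910 (0.0648) or WT_ABX_911 (0.0974), of ABX 5xFAD mouse FAD_ABX_1151 (0.0560), FAD_ABX_1452 (0.0505) or FAD_ABX_1460 (0.120), and scaling by library size alone (0.136).

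*Ptpn6* was 390.0, 531, 560.1, 593 and 618 CPM in ABX WT and 529 to 737 CPM (median 696) in ABX 5xFAD mice, of which 5 of 6 lay above all WT mice. Its log2 difference there was 0.33 (SE 0.0883, adjusted p = 0.0110), and the 1 low 5xFAD mouse was FAD_ABX_1151. The call was lost with only the compared groups in the fit (adjusted p = 0.0804). In GF mice it was 568, 582, 593 and 604 CPM in WT and 669, 681, 685, 686 and 744 CPM in 5xFAD. These groups did not overlap, and the difference of 0.24 (SE 0.0977) missed the threshold (adjusted p = 0.0977), as did that of 0.25 without mouse FAD_GF_201 (0.0913). In SPF mice it was 0.06 (SE 0.106, adjusted p = 0.917). *Ptpn6* shares 195 of its 2802 exonic bases with *Gm20531* on the other strand, whose reads cannot be told from its own.

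The next comparison asked whether the state of the microbiota changed the chain in 5xFAD mice. GF 5xFAD exceeded SPF 5xFAD mice in the receptor and both adaptors, and no other gene of the 9 passed the test. That made 3 of 9 changed, where 12.8% of all genes were, with 3 higher against 6.97% and none lower against 5.86%. *Tyrobp* rose 1.67-fold, from 1956 ± 157 CPM (SD, n = 3) to 3275 ± 711 CPM (SD, n = 5; log2 0.74, SE 0.154, adjusted p = 0.00316), and all GF mice lay above all SPF mice. *Trem2* rose 1.34-fold (log2 0.42, SE 0.111, adjusted p = 0.0136) and *Hcst* 1.6-fold (log2 0.67, SE 0.179, adjusted p = 0.0139), each with 4 of 5 GF mice above all SPF mice and mouse FAD_GF_201 as the exception. Without mouse FAD_GF_201 the differences were 0.86 for *Tyrobp* (adjusted p = 3.18e-04), 0.50 for *Trem2* (0.00232) and 0.78 for *Hcst* (0.00333).

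With 3 SPF 5xFAD mice, single animals weighed heavily. Without SPF 5xFAD mouse FAD_SPF_1146 or FAD_SPF_1148 the adjusted p of *Trem2* was 0.101 or 0.112 and that of *Hcst* 0.0615 or 0.109, while that of *Tyrobp* stayed at or below 0.0348 in all 38 alternatives. Genes of short length were shifted upward in this comparison too: the median log2 difference was 0.20 in the shortest class, where *Tyrobp* (667 bases) and *Hcst* (722 bases) belong, and -0.19 in the longest. With an offset for gene length the differences were 0.65 for *Tyrobp* (adjusted p = 0.00151), 0.57 for *Hcst* (0.0162) and 0.50 for *Trem2* (0.0149). SPF 5xFAD mice held the neutrophil markers in spite of the Ly6G gate, and GF 5xFAD mice had at most 0.0495 CPM of them. The part of these cells in the differences was not tested.

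Downstream, *Syk* was -0.35 in GF relative to SPF 5xFAD mice (SE 0.137, adjusted p = 0.0899), and with a length offset -0.08 (adjusted p = 0.716). Without mouse FAD_GF_201 it passed the test (-0.43, adjusted p = 0.0372). *Grb2* was 0.25 (SE 0.0860, adjusted p = 0.0561) and *Ptpn6* 0.26 (SE 0.107, adjusted p = 0.103), and all 5 GF mice lay above all 3 SPF mice in both. With *Tyrobp* that made 3 of 9 genes without overlap, against 19.6% of all genes. *Inpp5d* was -0.12 (adjusted p = 0.471), *Plcg2* -0.05 (0.850) and *Vav1* -0.06 (0.674).

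None of the 9 genes passed the test between ABX and SPF 5xFAD mice, as 0% of all genes did by edgeR's adjusted p (1085 genes, 1 of the 9 among them, had an unadjusted p under 0.05; DESeq2 called 8 genes and voomWithQualityWeights 134). The log2 difference was -0.01 for *Trem2* (95% interval -0.22 to 0.20), -0.10 for *Tyrobp* (-0.39 to 0.18) and 0.06 for *Hcst* (-0.28 to 0.39). *Ptpn6* was 0.23 (unadjusted p = 0.0348, adjusted p = 0.666), with 5 of 6 ABX mice above all SPF mice. ABX 5xFAD against GF 5xFAD mice changed 3 of 9 genes, where 10.6% of all genes did, with 3 lower against 6.07% and none higher against 4.52%. None of the 9 lacked overlap, against 2.82% of all genes, and mouse FAD_GF_201 lay within the ABX range in each of the 3. The log2 difference was -0.85 for *Tyrobp* (SE 0.124, adjusted p = 2.00e-04), -0.43 for *Trem2* (SE 0.0908, adjusted p = 0.00381) and -0.62 for *Hcst* (SE 0.145, adjusted p = 0.00753). Without mouse FAD_GF_201 they were -0.97, -0.51 and -0.73. Without mouse FAD_ABX_1151, when all mice compared share 1 labelling style, they were -0.79 (adjusted p = 9.76e-04), -0.38 (0.0143) and -0.54 (0.0272). The median of all genes ran from -0.12 in the shortest to 0.13 in the longest class by length, and with a length offset the differences were -0.76 (adjusted p = 1.39e-05), -0.48 (0.00500) and -0.53 (0.00689). *Hcst* was past the threshold in 37 of 38 alternatives and missed it with only the compared groups in the fit (0.0963). The comparisons of GF with SPF and of ABX with GF share the GF 5xFAD mice.

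**Figure D5:**
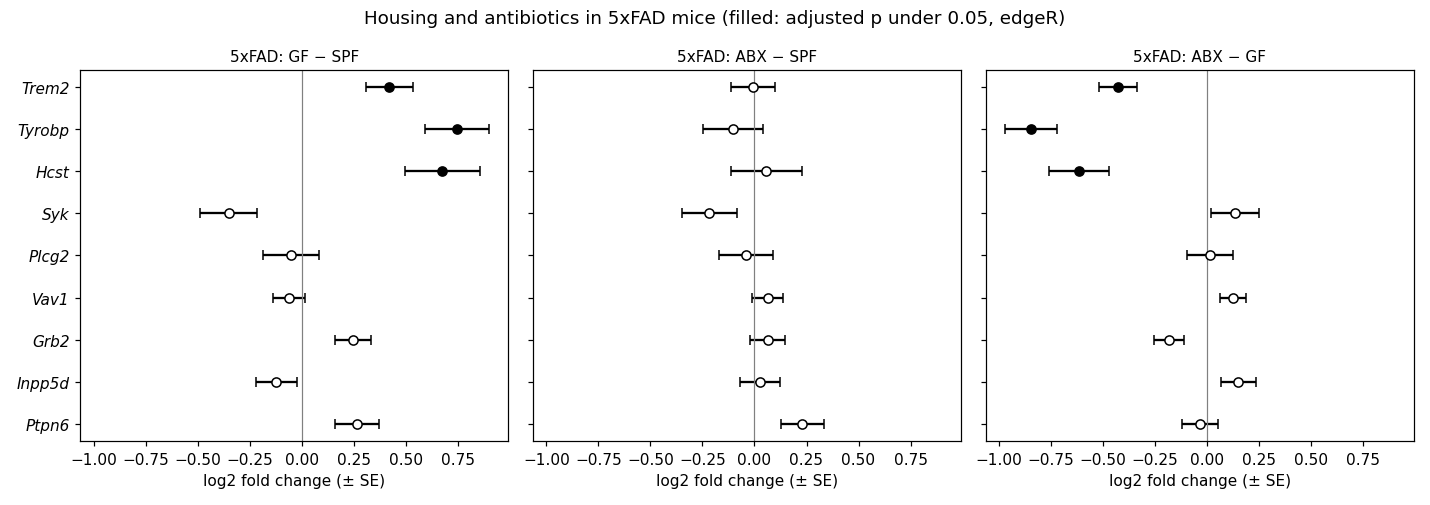
Log2 fold change of the 9 genes between conditions in 5xFAD mice (GF over SPF, ABX over SPF, ABX over GF), with bars of 1 SE from the edgeR fit. Filled points have an adjusted p under 0.05; they are *Trem2*, *Tyrobp* and *Hcst* in the panels with GF mice, and none is filled for ABX over SPF.

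In WT mice no change of the receptor or the adaptors between conditions passed the test. No member passed for GF against SPF WT mice, where 1.62% of all genes did, by edgeR's test (0 of 9 also at an unadjusted p under 0.05). The log2 difference was 0.15 for *Trem2* (95% interval -0.05 to 0.35), 0.04 for *Tyrobp* (-0.23 to 0.31) and -0.21 for *Hcst* (-0.53 to 0.12). *Plcg2* was the 1 gene of 9 without overlap, against 10.7% of all genes, with GF above SPF mice by 0.21 (SE 0.123, adjusted p = 0.421). For ABX against SPF WT mice no member passed either, as in 0% of all genes by edgeR (687 unadjusted; 2 by DESeq2 and 0 by voomWithQualityWeights), and the 1 member with an unadjusted p under 0.05 was *Inpp5d* (log2 -0.24, SE 0.0864). ABX against GF WT mice gave 1 of 9, beside 6.88% of all genes (4.48% lower, 2.4% higher). This was *Inpp5d*, with a log2 difference of -0.40 (SE 0.0912, adjusted p = 0.00884). All 5 ABX mice lay below all 4 GF mice, 1 of 9 without overlap against 10.9% of all genes, and all 38 alternatives kept the call.

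Whether the 5xFAD difference itself depended on the microbiota was tested with interaction terms. Genotype and labelling style cannot be told apart in SPF or in ABX mice, so none of these interactions can be told apart from style. Between GF and SPF the 5xFAD difference of *Tyrobp* was larger by 0.70 in log2 terms (SE 0.206, unadjusted p = 0.00195, adjusted p = 0.393) and that of *Hcst* by 0.88 (SE 0.244, unadjusted p = 0.00111, adjusted p = 0.321), and neither passed. No gene of the table did by edgeR (0%), while 1304 had an unadjusted p under 0.05 (4 of the 9, with *Inpp5d* and *Grb2* beside *Tyrobp* and *Hcst*), DESeq2 called 25 and voomWithQualityWeights 116, *Tyrobp* (adjusted p = 0.0418) and *Hcst* (0.0468) among the latter. *Trem2* was at 0.27 (SE 0.150, adjusted p = 0.639). Between ABX and SPF no member passed, as in 0% of all genes by edgeR (1032 unadjusted, *Inpp5d* among them; 1 by DESeq2 and 14 by voomWithQualityWeights), with *Tyrobp* at -0.18 (95% interval -0.56 to 0.20).

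Between ABX and GF, 3 of 9 genes passed, where 1.76% of all genes did, with 1 higher against 0.915% and 2 lower against 0.843%. The 5xFAD difference of *Tyrobp* was smaller by 0.88 in ABX than in GF mice (SE 0.186, adjusted p = 0.0157), that of *Hcst* smaller by 0.87 (SE 0.221, adjusted p = 0.0420), and that of *Inpp5d* larger by 0.55 (SE 0.123, adjusted p = 0.0237). Without mouse FAD_GF_201 the values were -1.01, -0.98 and 0.58. *Tyrobp* was past the threshold in 37 of 38 alternatives, *Inpp5d* in 36 and *Hcst* in 12. With only the compared groups in the fit none passed (adjusted p = 0.0507 for *Tyrobp*, 0.0962 for *Hcst* and 0.0518 for *Inpp5d*), and without GF WT mouse WT_GF_199 *Tyrobp* alone did. The interaction of all genes had a median of -0.14 in the shortest and 0.10 in the longest class by length, and with a length offset it was -0.68 for *Tyrobp* (adjusted p = 0.0140), 0.45 for *Inpp5d* (0.0148) and -0.67 for *Hcst*, which did not pass (0.0580). *Trem2* was at -0.26 (SE 0.136, adjusted p = 0.341), and *Vav1* at 0.27 (adjusted p = 0.142), or 0.31 (0.0488) without mouse FAD_GF_201.

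The wider pathway was read from lists of genes with known roles beside the chain. Their genotype counts stand beside the shares of all genes given above, which were 3.73% higher and 0.837% lower for SPF, 9.43% and 6.2% for GF, and 9.45% and 4.98% for ABX mice. Of 7 Src and Tec family kinases, which phosphorylate the ITAM or act beside SYK, 2 rose between genotypes in each of the 3 conditions, and 2 fell with GF housing, 1 under ABX and none with SPF. Those that rose were *Fgr*, from 4.75 to 20.4 CPM in SPF (log2 2.10, SE 0.326, adjusted p = 5.88e-05), and *Fyn*, from 26.1 to 42.5 CPM (log2 0.70, SE 0.168, adjusted p = 0.00931). *Lyn* was among those that fell, by 0.25 in GF mice (adjusted p = 0.00690) and by 0.18 in ABX mice (0.0366). None of the 7 passed the test between GF and SPF 5xFAD mice, where 12.8% of all genes did.

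The other ITAM adaptor tested was *Fcer1g*, the Fc receptor gamma chain, which serves Fc receptors as DAP12 serves TREM2. It rose in GF mice from a mean of 839.5 to 1410.1 CPM (log2 0.75, SE 0.125, adjusted p = 6.76e-05), and did not pass in SPF or ABX mice. Between GF and SPF 5xFAD mice it was 0.40 (adjusted p = 0.0502), and 0.47 (0.0190) without mouse FAD_GF_201. Its 5xFAD difference was smaller by 0.63 in ABX than in GF mice (adjusted p = 0.0481). Of 15 other receptors that couple to DAP12 or DAP10, 11 were tested, and none passed in SPF mice and 1 in GF mice, or 2 of 10 without mouse FAD_GF_201, when *Pilrb1* passed as well (adjusted p = 0.0388). *Cd300c2* was the one that rose in GF mice with all mice in the fit (log2 0.41, SE 0.112, adjusted p = 0.0108) and *Clec5a* the one that fell in ABX mice (log2 -0.27, SE 0.0702, adjusted p = 0.00791). *Cd300ld* rose in ABX mice from 0.501 to 3.79 CPM (adjusted p = 0.0139), and 4 more genes passed as higher there. These were *Klrk1*, a receptor of NK cells, and *Sirpb1a*, *Sirpb1b* and *Sirpb1c*, near-identical copies whose reads may be split uncertainly. All 4 had no reads in any ABX WT mouse and averaged 0.985, 0.546, 0.380 and 0.417 CPM in ABX 5xFAD mice, so they could enter the test only through groups that hold them, and the number of higher calls is not read against the share of all genes. In ABX mice all 7 border-associated macrophage markers were higher in 5xFAD too, and their part in these low-level genes was not tested.

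Among 16 scaffold adaptors, which gather the signalling proteins at the membrane, 1 rose and 1 fell in SPF, 1 rose and 1 fell in GF, and 2 rose and 1 fell in ABX mice. In GF mice this was about the share of all genes or less. *Lat2*, the linker for activation of T cells family member of myeloid and B cells, was 124 CPM in SPF WT, 162 in SPF 5xFAD, 136 in GF WT and 239 CPM in GF 5xFAD mice. It rose in GF (log2 0.81, SE 0.110, adjusted p = 3.27e-06) and ABX mice (log2 0.59, SE 0.0991, adjusted p = 8.16e-05) and was higher in GF than SPF 5xFAD mice (log2 0.56, SE 0.120, adjusted p = 0.00381). In SPF mice its 5xFAD difference was 0.39 (adjusted p = 0.0503), and it passed with a length offset (0.43, 0.0112). *Dok3*, an inhibitory docking protein, fell in all 3 conditions, by 0.71 in SPF (adjusted p = 0.00795), 0.92 in GF (4.16e-05) and 0.41 in ABX mice (0.0367). *Dok2* rose in SPF and ABX mice, to 3.46 and 5.97 CPM. The exchange factors *Sos1*, which activates RAS beside GRB2, and *Sos2* were lower in GF than SPF 5xFAD mice, by 1.16 (adjusted p = 0.00440) and 0.82 (0.0485), of which *Sos2* did not pass without mouse FAD_GF_201 (adjusted p = 0.0882) or with a length offset (0.129).

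Of 14 genes of phosphoinositide 3-kinase, Akt and beta-catenin signalling, 0 changed in SPF, 3 fell in GF, and 2 rose and 2 fell in ABX mice. *Gsk3b*, the kinase that marks beta-catenin for breakdown, fell by 0.49 in ABX mice (SE 0.0957, adjusted p = 5.46e-04), and its 5xFAD difference was lower by 0.68 in ABX than in GF mice (adjusted p = 0.0157). The catalytic subunit *Pik3cd* fell by 0.31 in GF mice (adjusted p = 0.0450) and the regulatory subunit *Pik3r5* by 0.48 (0.0118), whereas *Pik3r1* fell by 0.45 (0.00911) and *Pik3r2* rose by 0.44 (0.0174) in ABX mice. The interaction of ABX against GF was 0.56 for *Pik3cd* (0.0433) and 0.74 for *Pik3r2* (0.0417). Relative to SPF 5xFAD mice, GF 5xFAD mice had less *Pik3ca* (log2 -0.66, adjusted p = 0.0139), *Pdpk1* (-0.53, 0.0263) and *Pik3r5* (-0.42, 0.0496) and more *Akt1* (0.32, 0.0475). With a length offset 1 rose and 2 fell in GF mice, 4 rose and 2 fell in ABX mice, and none was lower and 1 higher in GF than SPF 5xFAD mice. Of all genes in that fit, 9.51% rose and 5.31% fell in GF mice, and 10.1% and 5.38% in ABX mice. Between GF and SPF 5xFAD mice 6.03% of them were higher and 3.39% lower. *Pik3cd* then missed the threshold in GF mice (adjusted p = 0.0957), and *Gsk3b* rose there (log2 0.32, adjusted p = 0.0215). The interaction of ABX against GF then passed in 1 gene, with a lower value, and in none with a higher one. Of all genes 0.68% passed as lower and 0.739% as higher.

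Of 13 genes of phospholipase C gamma, calcium and NFAT signalling, 0 changed in SPF, 6 fell in GF and 3 fell in ABX mice, and none rose. *Prkca*, a calcium-dependent protein kinase C, showed the largest drop among those named: it was 51.9 CPM in GF WT and 22.9 CPM in GF 5xFAD mice (log2 -1.18, SE 0.141, adjusted p = 3.44e-07), and fell by 0.43 in ABX mice (adjusted p = 0.0209). It was lower in GF than SPF 5xFAD mice by 0.95 (SE 0.151, adjusted p = 6.73e-04), and its interaction of ABX against GF was 0.76 (adjusted p = 0.0396). *Prkcd* fell by 0.28 in GF mice (0.00559). *Ppp3ca*, a catalytic subunit of calcineurin, fell by 0.31 in GF (0.0106) and 0.24 in ABX mice (0.0379), and *Ppp3r1*, its regulatory subunit, by 0.40 in ABX mice (0.0165). *Prkcb* fell by 0.31 in GF mice (0.0452; interaction of ABX against GF 0.55, adjusted p = 0.0452), and *Nfatc3* was lower in GF than SPF 5xFAD mice by 0.75 (0.0197). With a length offset 3 of the 13 fell in GF mice instead of 6, with *Ppp3ca* (adjusted p = 0.138) and *Prkcb* (0.235) among those lost. In ABX mice 1 rose, and *Ppp3ca* did not pass there either (0.0776). Between GF and SPF 5xFAD mice 1 instead of 2 was lower. Of all genes in that fit, 5.31% fell in GF mice, 10.1% rose in ABX mice and 3.39% were lower in GF than SPF 5xFAD mice.

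Among 14 genes of Vav, small GTPase and MAP kinase signalling, none changed between genotypes in SPF or GF mice, and none rose and 1 fell in ABX mice by edgeR. With a length offset 2 rose in GF mice, beside 9.51% of all genes in that fit. *Hras* (log2 0.53, adjusted p = 0.0303) and *Map2k2* (0.36, 0.0197) were higher in GF than SPF 5xFAD mice. Of 8 other phosphatases and brakes, 1 fell in SPF, 1 rose and 3 fell in GF, and 1 rose and 1 fell in ABX mice, and without mouse FAD_GF_201 the number that fell in GF mice was 1. *Ptprc*, the phosphatase CD45 used in the sort, rose in GF (log2 0.41, adjusted p = 0.00292) and ABX mice (0.26, 0.0415). *Sh2b3* fell in GF mice by 0.47 (9.43e-04), and *Csk*, which restrains Src kinases, fell in SPF mice by 0.36 (0.0280). *Ptpn22* was -0.94 in GF mice (adjusted p = 0.0487), and without mouse FAD_GF_201 it did not pass (-0.97, 0.0568), nor with a length offset (-0.86, 0.0853).

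Ligands and sheddases of TREM2 split. *Apoe*, a ligand, was 403 CPM in SPF WT and 4139 CPM in SPF 5xFAD mice (log2 3.36, SE 0.249, adjusted p = 6.46e-11), and 8726 CPM in GF 5xFAD mice, 1.08 in log2 terms above the former 5xFAD group (SE 0.257, adjusted p = 0.00730). It was higher in GF than SPF WT mice too (log2 0.91, SE 0.227, adjusted p = 0.0362), and the interaction of GF against SPF was 0.17 (SE 0.337, adjusted p = 0.934). *Apoe* gave the 1 higher call among 5 tested genes in each of the 3 conditions. *Adam10*, a protease that sheds TREM2, passed no genotype comparison and was lower in GF than SPF 5xFAD mice (564 against 376 CPM, log2 -0.58, SE 0.146, adjusted p = 0.00957). *Apob* was near the detection limit (2.26 CPM in SPF 5xFAD and 0.0923 CPM in GF 5xFAD mice).

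Disease-associated microglia are described as arising in an early stage that does not need TREM2 and a later one that does. Of 7 genes of the early stage, 6 rose with SPF housing, 7 with GF and 7 under ABX, with a median log2 difference of 1.06, 1.61 and 1.03 respectively. Of 11 genes of the later stage, 11 rose in each condition, with medians of 3.57, 3.12 and 3.13. The cystatin gene *Cst7* of the later stage went from 7.60 to 697 CPM in SPF (log2 6.52, SE 0.262, adjusted p = 8.23e-17), *Clec7a* from 29.4 to 398 CPM and *Axl* from 18.5 to 522 CPM. The early-stage gene *Ctsd*, a lysosomal protease, rose by 1.06 on the log2 scale in SPF mice (SE 0.0886, adjusted p = 7.83e-10) and *Ctsb*, another, by 1.34 (SE 0.124, adjusted p = 6.16e-09), beside 1.13 for *Tyrobp*.

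Between GF and SPF 5xFAD mice 5 of 7 early-stage genes and 5 of 11 later-stage genes were higher and none lower, beside 6.97% and 5.86% of all genes. The early ones were *Apoe*, *Ctsd* (log2 0.53, adjusted p = 0.00131), *Fth1* (0.89, 0.00166), *Cstb* (0.88, 0.00348) and *Lyz2* (0.81, 0.0154). The later ones were *Ctsl* (0.49, 0.00804), *Cst7* (0.93, 0.010), *Cd9* (0.41, 0.0154), *Csf1* (0.68, 0.0157) and *Ccl6* (0.66, 0.0209). Between ABX and GF 5xFAD mice, 7 of 7 and 10 of 11 were lower, beside 6.07% of all genes. The interaction of ABX against GF passed for *B2m* (-1.07, adjusted p = 0.00763), *Fth1* (-0.73, 0.0485) and *Ccl6* (-0.88, 0.0452), and without mouse FAD_GF_201 for *Ctsd* (-0.44, 0.0111) and *Cd9* (-0.49, 0.0312) as well. With a length offset *Ccl6* passed neither the interaction (adjusted p = 0.0515) nor GF against SPF 5xFAD mice (0.0564).

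Likeness of profile was measured as the root mean square distance of centred log2 CPM over 28 mice, among 9051 genes with a mean of at least 3 log2 CPM. This is a description, since all genes share libraries and groups. The distance grows with the size of changes as well as with their pattern, so genes that rise together by unlike amounts lie apart. *Ptpn6* (0.29), for one, was rank 658 from *Trem2*, ahead of *Tyrobp*. The nearest to *Tyrobp* were *Fth1* (0.15), *Prdx4* (0.15) and *Rpl32* (0.17), and *Hcst* (0.24) was rank 22. The nearest to *Trem2* were *Ergic3* (0.08), *Lamp1* (0.09) and *Akr1a1* (0.10), while *Hcst* (0.25) was rank 313 and *Tyrobp* (0.37) rank 1662. The nearest to *Hcst* were *Atox1* (0.17) and *Slamf9* (0.18), with *Tyrobp* rank 37 and *Trem2* rank 39. *Syk* was the farthest member from all 3, at 0.63 from *Trem2*, 0.95 from *Tyrobp* and 0.78 from *Hcst*.

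Promoters were set side by side for *Trem2* and *Hcst*, which rose together, and *Inpp5d*, whose 5xFAD differences in GF and ABX mice were opposite in sign. Each covers 250 bases before to 50 bases after the start in RefSeq (GRCm38.p6), which holds 8 of the 9 members. Capitals mark the letters GGAAGT or, on the other strand, ACTTCC, the core bound by ETS factors such as PU.1, which 23.8% of 32851 promoters of that length hold. A match is not a bound site.

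Trem2 promoter, chr17:48346151-48346450, plus strand: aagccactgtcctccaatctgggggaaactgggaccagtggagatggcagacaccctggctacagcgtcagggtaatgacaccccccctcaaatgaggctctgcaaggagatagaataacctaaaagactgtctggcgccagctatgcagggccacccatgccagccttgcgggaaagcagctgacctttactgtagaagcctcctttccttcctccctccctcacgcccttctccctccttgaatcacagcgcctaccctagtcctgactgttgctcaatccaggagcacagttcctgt
Hcst promoter, chr7:30419805-30420104, minus strand: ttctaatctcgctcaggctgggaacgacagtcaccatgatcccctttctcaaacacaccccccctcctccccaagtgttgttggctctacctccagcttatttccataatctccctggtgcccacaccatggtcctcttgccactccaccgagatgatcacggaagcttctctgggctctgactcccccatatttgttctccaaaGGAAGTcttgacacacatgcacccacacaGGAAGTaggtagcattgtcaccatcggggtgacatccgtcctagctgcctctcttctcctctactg
Inpp5d promoter, chr1:87620062-87620361, plus strand: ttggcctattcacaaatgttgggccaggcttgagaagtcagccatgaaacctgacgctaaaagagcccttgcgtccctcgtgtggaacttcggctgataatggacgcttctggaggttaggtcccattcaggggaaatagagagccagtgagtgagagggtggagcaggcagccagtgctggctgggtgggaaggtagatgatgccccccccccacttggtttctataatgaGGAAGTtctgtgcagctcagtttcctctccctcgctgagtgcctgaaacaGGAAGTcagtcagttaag

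*Hcst* and *Inpp5d* each hold 2 matches and *Trem2* none in this window. Of the other members in the table, *Ptpn6* holds 2, *Vav1* 1 and *Plcg2* none, and *Syk* and *Grb2*, with 2 promoters each, hold 1 match in 1 of them.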

How the data were processed

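Hippocampal microglia of 28 mice in 6 labelled groups were sequenced as single reads from SMARTer v4 cDNA and Nextera XT libraries, which do not mark strand. The authors deposited raw counts per gene, made by STAR 2.7.2 and featureCounts 1.6.2 with GENCODE M21 on GRCm38, without normalization (versions from the submitters' processing notes, whose build field names a human genome). A gene length column was deposited by the authors beside the counts (other unit, bases). The 92 spike-in entries (at most 12 reads in a library) were left out. All per-sample columns were used.

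Counts were analysed in R 4.3.3 with edgeR 4.0.16: filterByExpr (minimum count 10, minimum total 15) kept 15298 genes, TMM scaled the libraries, and the quasi-likelihood test ran on 1 term per group over all 28 mice. P-values were adjusted by Benjamini and Hochberg across the genes tested, and 0.05 was the threshold. The study's own method, voomWithQualityWeights (limma 3.58.1), DESeq2 1.42.0, other scalings and filters, length offsets, only the groups compared, the 26 mice without ABX 5xFAD mice FAD_ABX_1151 and FAD_ABX_1482 (the study shows fewer ABX 5xFAD mice than are deposited) and each mouse left out were alternatives, 38 per result. voomWithQualityWeights on the 26 mice was added after the values were seen. SE is the log2 fold change divided by the root of the F statistic, and 95% intervals are 1.96 SE to each side. TPM used the length column, and marker sums refer to library totals. Libraries of 14441610 to 29977395 reads set the depth, errors are the spread between mice, and PCR reads are not independent molecules. No replicate pair of a group agreed within sampling noise (lowest chi-square per degree of freedom 6.92). On simulated counts for GF 5xFAD against GF WT (14911 genes, 200 changed by 1.5 on the log2 scale), edgeR recovered 71% with 3.40% false calls. Most differences of the 9 genes were smaller, and 2391 genes were called in that comparison in the data. These rates do not carry over to such differences.

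The 9 genes and all lists were chosen with earlier results of these data known. From each pathway list, counts are given for the members tested, with names for up to 4 with the smallest adjusted p over the 3 genotype comparisons among those past the threshold and for any past it for GF against SPF 5xFAD mice or an interaction. *Trem1*, *Trem3*, *Siglec15*, *Cd300e*, *Cd247* and *Apoa1* did not pass the filter. Some genes that this rule names are not reported here, and the counts include them. Promoters are from RefSeq, and coding stretches were read from GENCODE M21 annotation on GRCm38. Figures were drawn with matplotlib.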

Additional observations from a re-analysis of the deposited data

Results flagged for a closer look

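Over the 9 genes, 45 sets of 4 to 6 mice, 1 per gene and group, were tested, and the 3 SPF 5xFAD mice were too few to test. Of the 45, 9 held a mouse whose gap to its nearest neighbour exceeded Dixon's 95% value, where chance gives about 1 in 20. Mouse FAD_GF_201 of GF 5xFAD accounts for 3 of them: *Trem2* at 2405 CPM (the others 3246 to 3462), *Hcst* at 19.5 CPM (31.2 to 32.2) and *Vav1* at 669 CPM (556 to 581). It is the mouse with conflicting labels. Mouse FAD_ABX_1151 of ABX 5xFAD accounts for 2, *Syk* at 224 CPM (151 to 177) and *Ptpn6* at 529 CPM (688 to 737), and it is the ABX library with neutrophil markers.

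The others were *Plcg2* at 457 CPM in GF WT mouse WT_GF_199 (365 to 379), *Inpp5d* at 1089 CPM in SPF WT mouse WT_SPF_912 (1246 to 1293), *Ptpn6* at 744 CPM in GF 5xFAD mouse FAD_GF_182 (669 to 686) and *Vav1* at 601 CPM in SPF WT mouse WT_SPF_926 (653 to 663).

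The 5xFAD difference of 3 genes was not the same in ABX and GF mice by the interaction term: -0.88 for *Tyrobp* (adjusted p = 0.0157), -0.87 for *Hcst* (0.0420) and 0.55 for *Inpp5d* (0.0237) on the log2 scale, by edgeR. Genotype and labelling style cannot be told apart in ABX mice, so neither can this interaction and style.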

How the results depend on the processing

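Among 41 differences of single genes with an unadjusted p under 0.05, of which 25 were past the adjusted threshold, no direction was reversed: 1447 values kept their side of the threshold, 85 fell below it and 26 moved past it. Counts of genes past the threshold were 5 (DESeq2), 5 (voomWithQualityWeights) and 5 (the same on 26 mice) instead of 3 for GF against SPF 5xFAD, where 2521, 3872 and 3896 instead of 1962 of all genes passed. With only the compared groups they were 3 instead of 5 for 5xFAD against WT in ABX mice (all genes 1321 instead of 2207). For the interaction of ABX against GF they were then 0 instead of 3 (all genes 67 instead of 269). voomWithQualityWeights gave 2 instead of 1 for ABX against GF WT and 2 instead of 0 for the interaction of GF against SPF, with 2 and 2 on the 26 mice, where ABX against SPF 5xFAD also had 2 instead of 0. All genes past the threshold were then 2025 and 116, and on the 26 mice 2052, 215 and 552. Leaving out each mouse gave 2 to 4 in SPF (2 without SPF WT mouse WT_SPF_925 or SPF 5xFAD mouse FAD_SPF_1144 or FAD_SPF_1146), 3 to 7 in GF (3 without mouse WT_GF_199 or FAD_GF_181) and 4 to 5 in ABX mice, 1 to 4 for GF against SPF 5xFAD (1 without mouse FAD_SPF_1146 or FAD_SPF_1148), 3 to 3 for ABX against GF 5xFAD, 1 to 1 for ABX against GF WT, 1 to 4 for the interaction of ABX against GF (1 without mouse WT_GF_199), 6 to 8 for a difference among any of the 6 groups (7 in the full fit, 5079 genes of the table, 33.2%), and 0 to 0 for the rest. The cause of these changes was not tested, beyond fewer mice in the fit.

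Without division by length the order of levels changed: *Trem2* ranked 1 (2 per length), *Tyrobp* 2 (1), *Inpp5d* 3 (5), *Ptpn6* 5 (3), *Syk* 7 (9), *Grb2* 8 (7) and *Hcst* 9 (8). Scaling by library size alone shifted the median of all genes by -0.12 for 5xFAD against WT in GF mice, and the directions of the calls held. In simulated data with a length trend, 39.9% of calls were false without and 1.35% with the length offset. The trend was set in advance and not fitted to these libraries, so these shares are not error rates of the calls here. Over all genes, voomWithQualityWeights called 2154 instead of 699 for 5xFAD against WT in SPF mice, 3872 instead of 1962 for GF against SPF 5xFAD, 1631 instead of 248 for GF against SPF WT and 2025 instead of 1053 for ABX against GF WT, and DESeq2 called 721, 1618 and 576 (instead of 269) for the latter pair and the interaction of ABX against GF. Leaving out each mouse moved that number to between 54 and 447 for GF against SPF WT, 449 and 1327 for ABX against GF WT, 547 and 2320 for GF against SPF 5xFAD, 980 and 2497 for ABX against GF 5xFAD, 437 and 812 for 5xFAD against WT in SPF mice, 85 and 491 for the interaction of ABX against GF, 0 and 59 for ABX against SPF 5xFAD, and 0 and 8 for the interaction of GF against SPF. With only the groups compared, 1321 instead of 2207 genes were called in ABX mice and 251 instead of 1621 for ABX against GF 5xFAD. No paired analysis was possible because mouse numbers are not shared between groups. Depth limits *Hcst* most, with as few as 155 reads.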
